A study of Mus musculus with 12 samples.

Results

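The 5 genes described here are Lhx2, Lhx9 and Lmx1b, which encode LIM homeodomain transcription factors, Ldb1, which encodes their shared cofactor, and En1, which encodes a homeodomain repressor. Their members are the rows of the peak lists whose summit lies within 150 kb of the gene body on mm10, and 551 of the 268431 rows in the 12 deposited lists met this rule. Forelimb buds of wild-type Swiss Albino mouse embryos were dissected 6 h after the pregnant females were injected at E10.5 with C59, an inhibitor of the enzyme porcupine that blocks WNT ligand secretion, or with its solvent DMSO (wild-type control). Chromatin of pooled forelimb buds was precipitated with antibodies against β-catenin, after a second crosslink with disuccinimidyl glutarate, or against histone H3 acetylated at lysine 27 (H3K27ac), a mark of active promoters and enhancers. There are 2 replicate libraries for each of the 4 groups (β-catenin DMSO, β-catenin C59, H3K27ac DMSO, H3K27ac C59), and all groups share the wild-type genotype. A consensus list for each group holds the summits called on both replicates together that also lie in a peak of each replicate. The whole limb bud was used, so that a smaller share of cells with a bound site and a weaker signal per cell cannot be told apart.

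In canonical WNT signaling, β-catenin enters the nucleus and joins TCF/LEF factors at their DNA motifs, where it acts as a coactivator. LIM homeodomain proteins bind TAAT-type DNA motifs and use their LIM domains to bind LDB1, which dimerises and can bridge enhancers and promoters. In the limb bud, Lhx2 and Lhx9 are known from the distal mesenchyme, where they link the signals of the apical ridge with outgrowth. Lmx1b is known from the dorsal mesenchyme, where WNT7A of the dorsal ectoderm induces it and it specifies dorsal fate, and limb-specific enhancers upstream of the gene have been described. En1 is known from the ventral ectoderm, where it represses Wnt7a.

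The tissue was checked by H3K27ac rows within 1 kb of a TSS (transcription start). All 5 limb mesenchyme genes examined (Prrx1, Tbx5, Hand2, Twist1 and Msx1) had such a row in all 4 libraries, and the blood, neural, heart and liver genes (6 in all) had none in any library. Of the 5 genes of ectoderm and apical ridge, 1 (Epcam) had a row in all 4 libraries and 3 (Fgf8, Trp63 and Wnt7a) had none. The remaining one, Cdh1, had a row in DMSO replicate 2 (fold 2.83) and in both C59 libraries (3.59 and 3.02). Of the 2 hindlimb genes Tbx4 had a row in all 4 and Pitx1 in none. Ectoderm, where En1 is known, was judged by these 5 genes alone, and its part in the lists was not tested. Depth, read from the background coverage that the peak caller expected, was 2.93 and 3.39 Gb of fragments for β-catenin in DMSO and 3.42 and 3.40 Gb after C59. The H3K27ac libraries held between 5.03 and 5.93 Gb.

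The DMSO consensus list held 29 β-catenin summits at the 5 loci, called sites here and numbered along the chromosome within each locus. The reference sequence (GRCm38, plus strand) around the strongest site of each locus shows how these sites differ, because the strongest sites of Lhx2 and Ldb1 hold a TCF/LEF core (ATCAAAG or TTCAAAG, both strands searched in 200 bp around the summit) and those of Lhx9, Lmx1b and En1 hold none. Lhx2 site 1 is shown at chr2:38238823-38239022, Ldb1 site 1 at chr19:45966328-45966527, Lhx9 site 4 at chr1:138837883-138838082, Lmx1b site 5 at chr2:33700791-33700990 and En1 site 3 at chr1:120715430-120715629. Capitals mark the TCF/LEF cores and, where present, the homeodomain core TAATTA and the E-box CAGCTG.
Lhx2 site 1: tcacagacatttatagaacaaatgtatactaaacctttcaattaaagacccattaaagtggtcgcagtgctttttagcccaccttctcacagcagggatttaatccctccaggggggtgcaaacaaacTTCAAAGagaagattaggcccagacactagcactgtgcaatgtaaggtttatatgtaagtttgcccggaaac
Ldb1 site 1: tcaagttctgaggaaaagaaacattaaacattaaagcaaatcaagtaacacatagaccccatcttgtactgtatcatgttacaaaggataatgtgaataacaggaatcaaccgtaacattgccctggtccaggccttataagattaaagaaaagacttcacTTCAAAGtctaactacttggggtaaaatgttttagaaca
Lhx9 site 4: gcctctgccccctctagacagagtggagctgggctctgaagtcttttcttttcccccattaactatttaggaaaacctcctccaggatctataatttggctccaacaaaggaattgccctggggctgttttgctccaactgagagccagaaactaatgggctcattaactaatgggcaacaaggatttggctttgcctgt
Lmx1b site 5: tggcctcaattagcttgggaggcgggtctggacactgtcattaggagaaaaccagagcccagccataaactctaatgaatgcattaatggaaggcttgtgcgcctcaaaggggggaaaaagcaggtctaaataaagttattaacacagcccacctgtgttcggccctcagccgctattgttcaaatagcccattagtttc
En1 site 3: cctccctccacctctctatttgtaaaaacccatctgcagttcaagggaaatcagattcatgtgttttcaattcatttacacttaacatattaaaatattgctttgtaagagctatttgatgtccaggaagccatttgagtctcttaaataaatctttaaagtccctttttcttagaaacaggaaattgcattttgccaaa
Lmx1b sites 7 and 8, at chr2:33705930-33706129 and chr2:33708166-33708365, belong to the densest group of sites described here and each hold a core on the minus strand close to the summit, and site 7 also holds TAATTA and site 8 CAGCTG.
Lmx1b site 7: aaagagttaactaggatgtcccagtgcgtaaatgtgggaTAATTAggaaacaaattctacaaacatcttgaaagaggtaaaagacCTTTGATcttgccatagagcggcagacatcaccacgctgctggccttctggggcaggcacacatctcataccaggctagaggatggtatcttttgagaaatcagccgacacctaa
Lmx1b site 8: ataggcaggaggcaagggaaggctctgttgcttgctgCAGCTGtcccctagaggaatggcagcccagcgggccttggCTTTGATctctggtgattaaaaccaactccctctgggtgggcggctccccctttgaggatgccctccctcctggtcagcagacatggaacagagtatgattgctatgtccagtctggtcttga
The remaining cores lie at Lhx2 site 3 (chr2:38318149-38318179) and at Lmx1b site 11 (chr2:33743024-33743134), which holds 2 of them.
Lhx2 site 3: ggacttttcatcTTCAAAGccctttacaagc
Lmx1b site 11: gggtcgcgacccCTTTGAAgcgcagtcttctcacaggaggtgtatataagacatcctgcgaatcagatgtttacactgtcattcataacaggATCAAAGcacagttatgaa
In all, 6 of the 29 sites held a TCF/LEF core, a share of 20.7% (95% Wilson interval 9.85 to 38.4%), against 28.6% of all 16193 DMSO consensus summits. TAATTA was found at 6 sites (20.7%, against 14.8% of all summits) and CAGCTG at 5 (17.2%, against 18.8%). The 3 shares lie near those of all summits, and the intervals of the loci include them. A match of letters is a description and does not show that a factor is bound.

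By the GENCODE annotation Lhx2 (ENSMUSG00000000247.11) lies at chr2:38339281-38369733 on the plus strand, Lhx9 (ENSMUSG00000019230.14) at chr1:138825186-138848577 on the minus strand and Lmx1b (ENSMUSG00000038765.13) at chr2:33560965-33640511 on the minus strand. Ldb1 (ENSMUSG00000025223.15) lies at chr19:46031570-46045214 on the minus strand and En1 (ENSMUSG00000058665.8) at chr1:120602418-120607992 on the plus strand. Distances from the gene start are positive in the direction of transcription. Of the 29 sites, 21 were more than 50 kb from the gene start, 2 were under 10 kb and 0 were under 1 kb. A window of 150 kb on each side of the gene body favours such distances, and the same shares over all genes were not counted. A site far from the gene start can also lie in the gene, as Lmx1b site 1 (59.7 kb) does in an Lmx1b intron. By the GENCODE annotation 15 were intergenic, 7 intronic, 4 in noncoding genes, 2 in untranslated exons and 1 in an exon of a noncoding transcript. Within 1 kb of any annotated TSS lay 6 sites (20.7%, against 16.3% of all summits). These were Lhx2 site 2 at the Dennd1a TSS (40 bp), Lhx2 site 4 (225 bp from a transcript start in the Lhx2 gene body), Lhx9 site 5 at Dennd1b (162 bp), Ldb1 site 2 at Pprc1 (95 bp), Ldb1 site 3 at Nolc1 (8 bp) and Lmx1b site 10 (57 bp from a noncoding transcript). Assignment rests on distance alone, so that sites at the promoters of neighbouring genes are counted with the member.

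**Figure D1:**
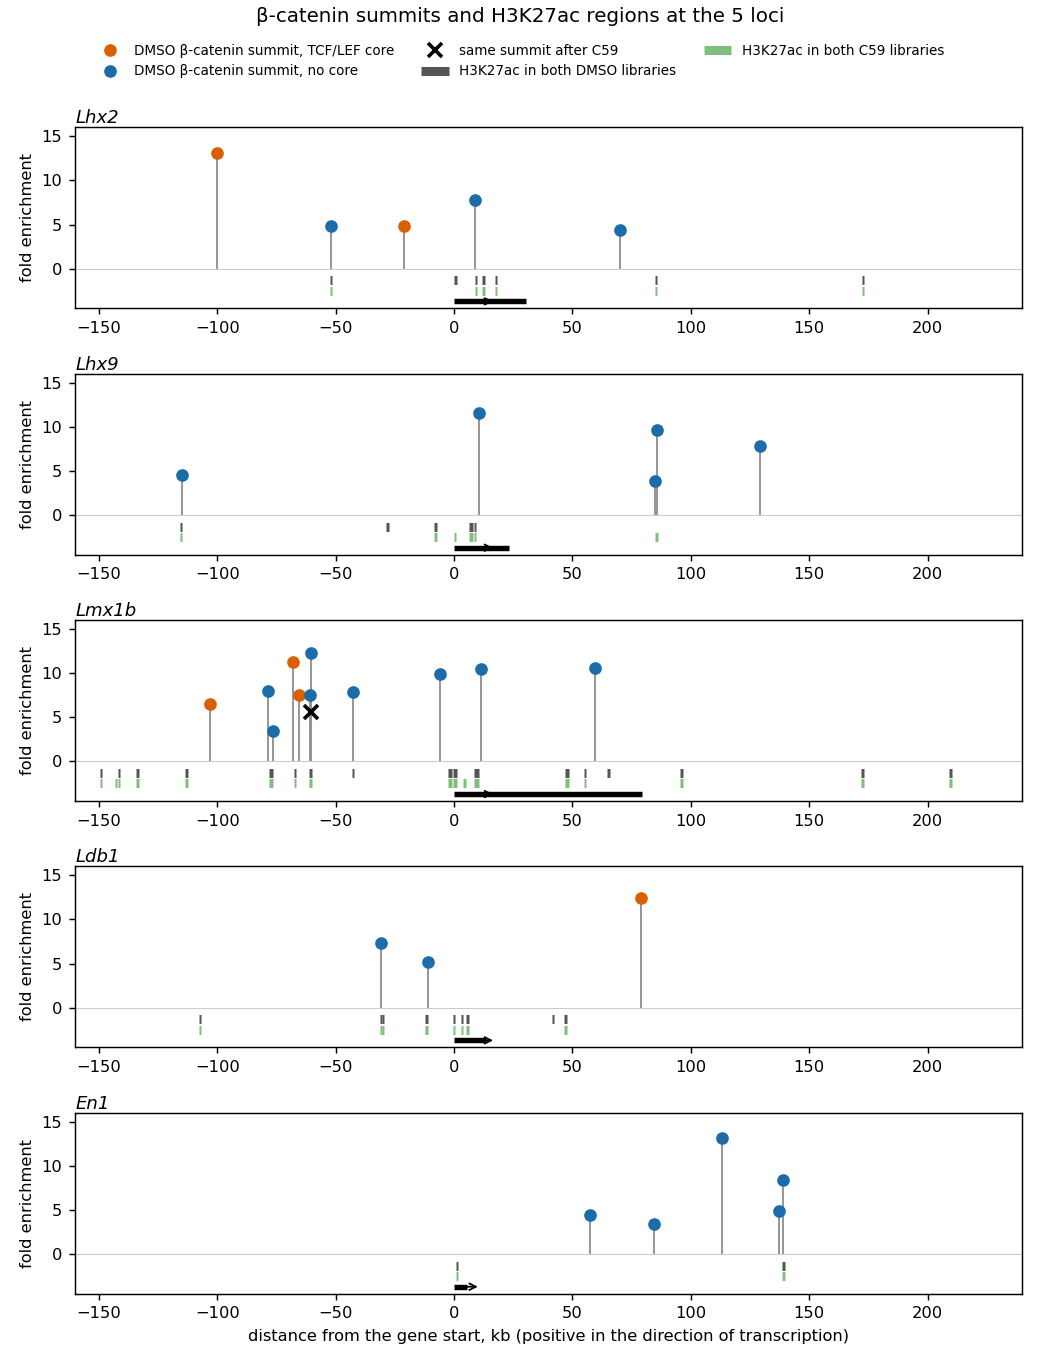
Fold enrichment of each DMSO β-catenin consensus summit (points, orange with a TCF/LEF core and blue without) against its distance in kb from the gene start, with the H3K27ac regions listed in both DMSO libraries (grey ticks) and in both C59 libraries (green ticks) and the gene body (black bar, arrow in the direction of transcription) below. The 11 Lmx1b sites include 6 packed between −60.4 and −78.4 kb, and the cross marks the only one of the 29 that was listed after C59.

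Fold enrichment is the ratio of fragments at the summit to the coverage the peak caller expected there, each plus 1. Over the 29 sites its consensus value ranged from 3.44 to 13.1 with a median of 7.76, against a median of 6.76 over all summits, and 8 sites reached 10. Each of the 29 had a row in both DMSO replicates, which the consensus list requires. Over these sites, selected in this way, the log2 ratio of the replicate folds had an SD of 0.38 and ran from −0.61 to 1.1. Fragments at the summit were recovered from the fold and the p-value of each row, and ran from 8 to 148 over the 29 sites. The gene-wise number of summits differed among the 5: Lmx1b had 11, Lhx2, Lhx9 and En1 had 5 each and Ldb1 had 3. A window includes the gene body, and it was 380 kb at Lmx1b and from 306 kb (En1) to 330 kb (Lhx2) at the others. The counts were not scaled to this length. Of the 21911 protein-coding genes counted with the same window, 1.64% had at least as many summits as Lmx1b, 12.7% at least as many as Lhx2, Lhx9 and En1, and 30.9% at least as many as Ldb1, and the median gene had 1.

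By fragments at the summit Lmx1b carried the strongest β-catenin signal of the 5 loci, while by consensus fold its highest site (12.3) was below those of Lhx2 and En1 (13.1 each). Lmx1b site 5 (summit chr2:33700891, intergenic, −60.4 kb) had 121 fragments in DMSO replicate 1 and 148 in replicate 2, and folds of 11.7 and 12.5. Of all rows of the replicate lists, 0.688% and 0.492% had as many fragments. Lmx1b site 6, 639 bp away within the same peak, had 97 and 110 fragments, Lmx1b site 7 had 98 and 111, and Lmx1b site 8 had 91 and 121. These 4 sites stood above every other site of the 5 loci in both replicates, where the next highest had 48 fragments (Lmx1b site 2, replicate 1) and 76 (Lhx9 site 4, replicate 2). Their folds were not as far apart from the others, between 7.19 and 12.5 in the replicates, because the expected coverage around them was itself high, from 8.66 to 14.2 fragments against a genome background of 1.57 and 1.81. With no input library in the peak calling, the expected coverage comes from the same library, so that signal around a site enters it. The part of neighbouring sites in this coverage was not tested.

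The 2 remaining sites of the cluster were weaker: Lmx1b site 9 had 16 and 27 fragments and Lmx1b site 10 had 41 and 52. The 6 sites from 5 to 10 spanned 18.1 kb. Outside the cluster, Lmx1b site 3 (−5.74 kb) had 33 and 48 fragments, intronic sites 1 and 2 had 35 and 44 and 48 and 50, and Lmx1b site 4 (−42.8 kb) had 10 and 24. Lmx1b site 11, in an intron of the neighbour Mvb12b and with both TCF/LEF cores, had 19 and 13 fragments and folds of 7.17 and 4.71. The cores were therefore found at sites of high and of low signal.

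At Lhx2 the strongest site lay inside a neighbouring gene. Lhx2 site 1 (summit chr2:38238923, in an exon of a noncoding Dennd1a transcript) had 36 and 32 fragments and folds of 11.7 and 10. Lhx2 site 4, in an intron of Lhx2 at 8.81 kb, had 32 and 40 fragments and folds of 6.71 and 7.78. The other 3 sites had between 8 and 13 fragments, among them site 3 with the TCF/LEF core and TAATTA (8 and 11).

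At Lhx9 the strongest site was intronic. Lhx9 site 4 (summit chr1:138837983, 10.6 kb) had 47 and 76 fragments and folds of 9.83 and 12.4. Lhx9 site 2 (85.5 kb, intergenic) had 34 and 35 fragments, Lhx9 site 3 lay 803 bp from it with 11 and 18, Lhx9 site 1 had 26 and 17, and Lhx9 site 5 had 13 and 9. None of the 5 held a TCF/LEF core in the 200 bp searched.

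The Ldb1 gene itself held no consensus summit. Ldb1 site 1 (summit chr19:45966428, intron of Armh3) had 33 fragments in each DMSO replicate and folds of 11.6 and 10.6. Sites 2 and 3, at the promoters of Pprc1 and Nolc1, had 11 and 13 and 14 and 22 fragments. Ldb1 was therefore the member with the fewest sites, and 2 of its 3 sites belonged by distance to other promoters.

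The En1 sites were all on one side of the gene. En1 site 3 (summit chr1:120715530, intergenic, 113.0 kb) had 32 and 48 fragments and folds of 10 and 13.3, the highest consensus fold at this locus (13.1). En1 site 5 (139.0 kb) had 31 and 22 fragments, En1 site 4 had 17 and 13, and sites 1 and 2 had between 8 and 12. The 5 sites lay between 57.2 and 139.0 kb from the gene start, and 0 held any of the 3 motifs.

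The consensus summits on either side of the 150 kb limit were not close to it. The farthest inside lay 100, 115, 103, 65.1 and 134 kb from the gene bodies of Lhx2, Lhx9, Lmx1b, Ldb1 and En1 and had consensus folds of 13.1 (Lhx2), 4.56 (Lhx9), 6.54 (Lmx1b), 12.4 (Ldb1) and 8.4 (En1). The nearest summits outside had folds of 7.28, 4.95, 5.45, 4.81 and 3.86 in the same order, all more than 200 kb away. Of the β-catenin summits inside the limit in the replicate lists, the nearest to it was one of Lmx1b in DMSO replicate 2, at chr2:33789349, with a fold of 3.8 and 14 fragments.

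After C59, 1 of the 29 sites was still inside a β-catenin peak. Lhx2 was listed with 7 and 6 summits in the 2 DMSO libraries and 0 and 0 after C59, Lhx9 with 6 and 8 and then 0 and 0, and Lmx1b with 17 and 18 and then 1 and 1. Ldb1 had 4 and 6 and then 0 and 0, and En1 had 5 and 6 and then 0 and 0. The groups did not overlap at any of the 5 loci. This goes with the whole lists, which held 20203 and 25836 summits in DMSO and 330 and 358 after C59. Of the 21911 protein-coding genes, 1.23% had a C59 consensus summit in the same window, and the share of genes without overlap was not counted. Over the 5 loci together the mean was 41.5 ± 3.54 summits (SD, n = 2) in DMSO and 1.0 ± 0 after C59, a difference of −40.5 (exact permutation test, two-sided, p = 0.33, the smallest that 2 against 2 libraries allow). The consensus summits outside every C59 consensus peak were 28 of 29, or 96.6% (82.8 to 99.4%), against 98.9% of all DMSO summits, a share close to that of the genome.

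**Figure D2:**
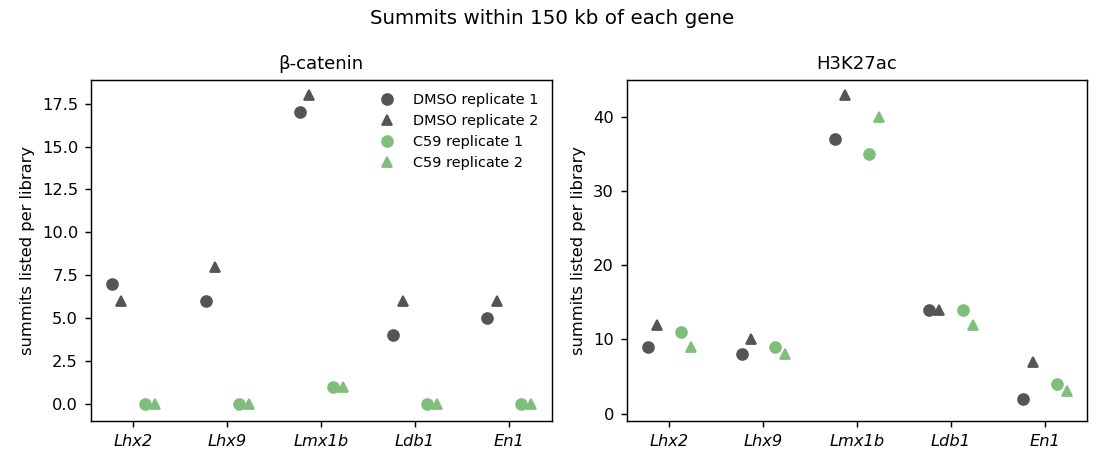
Summits listed per library within 150 kb of each gene, for β-catenin (left) and H3K27ac (right), with circles for replicate 1 and triangles for replicate 2, grey for DMSO and green for C59. The β-catenin counts go from between 4 and 18 to 0 or 1, while the H3K27ac counts of the treatments overlap at each locus.

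The C59 lists needed stronger evidence per peak. The lowest −log10 p listed was 5.69 and 5.72 after C59 against 3.89 and 3.79 in DMSO, which at the genome background takes 11 fragments in place of 8. Of the 29 sites, 22 had a p past the C59 limit in both DMSO replicates, and 21 of these 22 (95.5%) were outside the C59 peaks. Of all 16193 summits, 14084 were past the limit and 13902 of those (98.7%) were outside, so the share at the 5 loci is close to that of the genome. At their own expected coverage, taken from DMSO and scaled to the depth of the C59 libraries, 14 of the 29 sites would have been listed in both C59 libraries at 50% of their DMSO level, and 7 would not have been listed in both even at their full DMSO level. Of these 7, En1 site 1 and Lhx2 site 5 would have been listed in neither C59 library, so that the absence of a row says nothing of a change there. The other 5 would have been listed in 1 of the C59 libraries from between 73.8% (Lmx1b site 9) and 99.6% (Lhx2 site 3) of their DMSO level. Lmx1b sites 6, 7 and 8, by contrast, would have been listed from 30.9%, 31.5% and 26.4% of the DMSO level in replicate 1. Where the expected coverage also dropped, fewer fragments were enough, as at Lmx1b site 5.

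**Figure D3:**
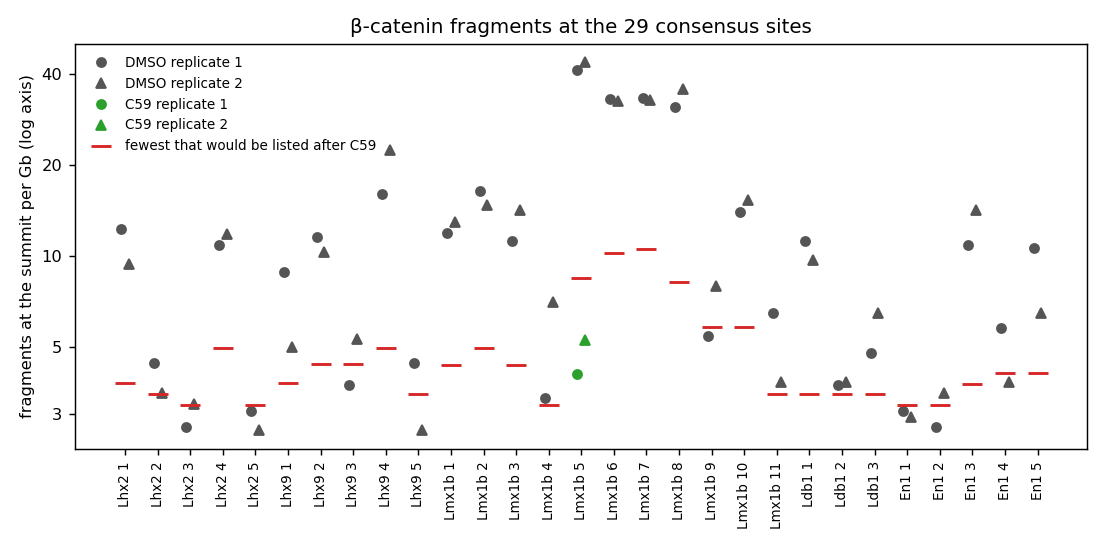
β-catenin fragments at the summit per Gb of library (log axis) for the 29 sites, with circles for replicate 1 and triangles for replicate 2, grey for DMSO and green for C59, and red bars for the fewest fragments that C59 replicate 1 would have listed if the expected coverage were that of DMSO. Lmx1b sites 5 to 8 stand above 30 fragments per Gb in DMSO, and the only C59 values are those of Lmx1b site 5, at 4.09 and 5.29.

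The site that remained was the one with the most fragments in DMSO. Lmx1b site 5 had 14 and 18 fragments after C59 and folds of 4.71 and 5.68. Per Gb of library these are 4.09 and 5.29 fragments, against 41.2 and 43.7 in DMSO. The C59 mean was 11.1% of the DMSO mean, a 9.05-fold difference, and the groups did not overlap. The same ratio and the share without overlap were not counted over the other DMSO summits inside C59 peaks. Whether such a drop is usual among them is therefore not known. In fold enrichment the same site went from 11.7 and 12.5 to 4.71 and 5.68, a smaller ratio, because the expected coverage around it also dropped, from 9.46 and 11 to 2.19 and 2.35. Lmx1b sites 6 to 8 had no row in either C59 library.

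H3K27ac was measured at the same loci to ask whether active chromatin changed within the same 6 h. The H3K27ac summits numbered 9, 12, 11 and 9 at Lhx2 (DMSO replicates 1 and 2, then C59 replicates 1 and 2), 8, 10, 9 and 8 at Lhx9 and 37, 43, 35 and 40 at Lmx1b. They numbered 14, 14, 14 and 12 at Ldb1 and 2, 7, 4 and 3 at En1. The ranges of the treatments overlapped at every locus. The means over all 5 loci were 78.0 ± 11.3 and 72.5 ± 0.707 (SD, n = 2, exact permutation test, two-sided, p = 1.0). Without DMSO replicate 2 the sign of this small difference turned (from −5.5 to 2.5).

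Most H3K27ac regions of these loci were called in every library. Merged over the 4 libraries there were 56 regions, and 36 (64.3%) had a row in all 4, against 51.3% over the genome. Of the 41 DMSO consensus regions, 5 (12.2%) overlapped no C59 consensus region, against 13.0% of all, and of the 39 C59 regions 4 (10.3%) overlapped no DMSO region, against 10.7% of all. These shares are near the background of the genome. With either C59 replicate list in place of the consensus, 39 of the 41 DMSO regions were overlapped.

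The promoters of the 5 genes differed in acetylation and were listed after both treatments, in at least 1 C59 library each. The region at the En1 TSS had folds of 4.07 and 3.6 in DMSO and 4.07 and 3.02 after C59. The region at the Lhx2 TSS had 4.88 and 4.63 in DMSO, 4.31 in C59 replicate 1 and no row in C59 replicate 2. Lhx9 region 5, at the gene start, had 2.07 in DMSO replicate 1 only and 3.23 and 2.17 after C59, and Lhx9 region 3, at an internal TSS, had 4.82, 4.22, 4.6 and 5.5. Lmx1b region 12, at the gene start, had 2.03 and 2.1 in DMSO and 2.65 and 2.51 after C59, with adjusted p = 0.52 (limma). In fragments per Gb the direction of Lmx1b region 12 was the opposite, 19.5 and 21.1 in DMSO and 18 and 16 after C59 (83.8%), without overlap and without a call (adjusted p = 0.42, limma). Lmx1b region 13 lies upstream of the gene start, with its edge within 1 kb of an Lmx1b TSS. Its strongest summit was at −1.93 kb, in the noncoding gene C130021I20Rik. This region had folds of 2.78 and 2.34 in DMSO and 2.42 and 3.01 after C59. In fragments per Gb it had 24.1 and 20.9 and then 14 and 16.5 (67.8%), which limma called lower. Ldb1 region 5, which spans TSSs annotated to Ldb1 and to Pprc1 and cannot be told apart between them, had 5.52, 5.6, 6.46 and 4.8. In fragments per Gb Ldb1 region 5 was at 76.4% after C59, and Ldb1 region 3, at an internal Ldb1 TSS, was at 77.9%, both without overlap and neither with a call (adjusted p = 0.13 for each, limma). Of all 17498 regions listed in all 4 libraries, 34.5% were lower after C59 without overlap, and the median was 93.3% of DMSO. Such values without overlap are therefore common over the genome. On fold enrichment limma called none of the promoter regions listed in all 4 libraries, and those with a missing row were not tested.

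By fold enrichment the strongest H3K27ac region was a neighbour's promoter at 4 of the 5 loci. Folds were 14.9, 13.7, 14.3 and 14.3 at Dennd1a and 15.7, 15.3, 14 and 13.7 at Nek6 in the Lhx2 window, and 20.5, 18.6, 14.2 and 15.7 at 2310009B15Rik in the Lhx9 window. They were 13.1, 14.7, 17.5 and 15.4 at Zbtb43 in the Lmx1b window and 17.2, 20.8, 21.6 and 18 at Armh3 in the Ldb1 window. In the En1 window the strongest was En1 region 4 (139.0 kb), at En1 site 5, with 5.47, 4.67, 4.7 and 5.8. By mean fragments per Gb in DMSO the order was another: Lhx9 region 3 in Lhx9 (37.8) stood above 2310009B15Rik (17.5), Ldb1 region 3 in Ldb1 (46.4) above Armh3 (38.5) and Lmx1b region 13 (22.5) above Zbtb43 (16.2). Among the regions listed in all 4 libraries, a neighbour's promoter (Nek6, 28.5) was then highest at Lhx2 alone.

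Across the 17498 regions of the genome listed in all 4 H3K27ac libraries, limma on log2 fold enrichment called 2 (0.0114%) at an adjusted p under 0.05. Of the 36 member regions 0 were called and 7 had an unadjusted p under 0.05 (9.42% of all regions did). Their log2 differences, C59 over DMSO, ran from −0.42 to 0.60 with a median of 0.01, against a median of 0.00 over all regions. The lowest adjusted p was 0.34, at Lhx9 region 6 (−0.39, SE 0.09). Ldb1 region 7 at Nolc1 (0.60, SE 0.25, adjusted p = 0.51) and Lmx1b region 20 (−0.42, SE 0.17, adjusted p = 0.5) had the extreme values.

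On the scale of fragments the Lmx1b upstream region gave a different picture. Lmx1b region 20 (chr2:33707300-33708142, −67.0 kb), which lies between β-catenin sites 7 and 8, had 42 and 43 H3K27ac fragments at its summit in DMSO and 18 and 16 after C59. Per Gb of library these are 8.35 and 7.97 against 3.03 and 2.88, and the C59 mean was 36.2% of the DMSO mean. Lmx1b region 21 (chr2:33716777-33718708, −77.4 kb), which holds β-catenin site 9, had 12.5 and 16.9 fragments per Gb in DMSO and 7.92 and 6.47 after C59, or 49.0%. At both regions the treatments did not overlap, and 34.5% of all regions listed in all 4 libraries were lower after C59 without overlap. Lmx1b region 17 (−60.7 kb), which holds β-catenin site 6 and lies beside site 5, had 6.96 and 10.2 in DMSO and 7.58 and 8.09 after C59 (91.3%), so that values overlapped there. Its fold enrichment was higher after C59, 5.67 and 5.41 against 3.42 and 4.32 in DMSO, without a call (adjusted p = 0.47, limma).

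The same limma fit on log2 fragments per Gb called 747 of the 17498 regions (4.27%), 633 of them lower after C59 (3.62%), and 4 of the 36 member regions, all lower (11.1%). These were Lmx1b region 20 (log2 difference −1.47, SE 0.25, adjusted p = 4.4e-06), Lmx1b region 21 (−1.02, SE 0.20, adjusted p = 0.00019), Lmx1b region 13 upstream of the gene start (−0.56, SE 0.17, adjusted p = 0.028) and Ldb1 region 4 in an Ldb1 intron (−0.59, SE 0.19, adjusted p = 0.044). In this fit limma took the spread of a region wholly from regions of like level, and the median of all regions was itself −0.1. Fold enrichment gave no call at these regions (adjusted p between 0.5 and 0.92) and the expected coverage was lower after C59 at each of the 4, at Lmx1b region 20 from 10.6 and 12.4 fragments to 5.88 and 5.91.

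Of the 17498 regions 60 (0.343%) were at or under 50% of their DMSO fragments after C59, and 2 of the 36 member regions were (5.56%), both in the Lmx1b upstream cluster. Among these 17498, counted from the lowest, Lmx1b region 20 had rank 3 and Lmx1b region 21 had rank 48. All of them had a row in each library, so a region that fell under the listing limit after C59 was not ranked. Over the genome 1030 regions were listed in both DMSO libraries and in neither C59 library. Of the 169 H3K27ac regions with a β-catenin summit of at least 90 fragments in both DMSO libraries within 2.5 kb, the median was 99.4% of DMSO and 3 (1.78%) were at or under 50%. Of the 12438 regions with no β-catenin summit within that distance, the median was 92.7% and 0.314% were at or under 50%, and over all regions the median was 93.3%. With 50 to under 90 β-catenin fragments 1.73% were at or under 50%, with 20 to under 50 it was 0.602% and with under 20 it was 0.129%. Drops of this size were thus a small share at every level of β-catenin. The levels were set after the values were seen, and Lmx1b region 20 is itself 1 of the 3 regions. The shares therefore give no separate support for that region, and their differences were not tested. Over the 36 member regions the median was 87.2%, with 18 lower in both C59 libraries without overlap (34.5% of all regions were) and 3 higher without overlap (13.1% of all regions).

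**Figure D4:**
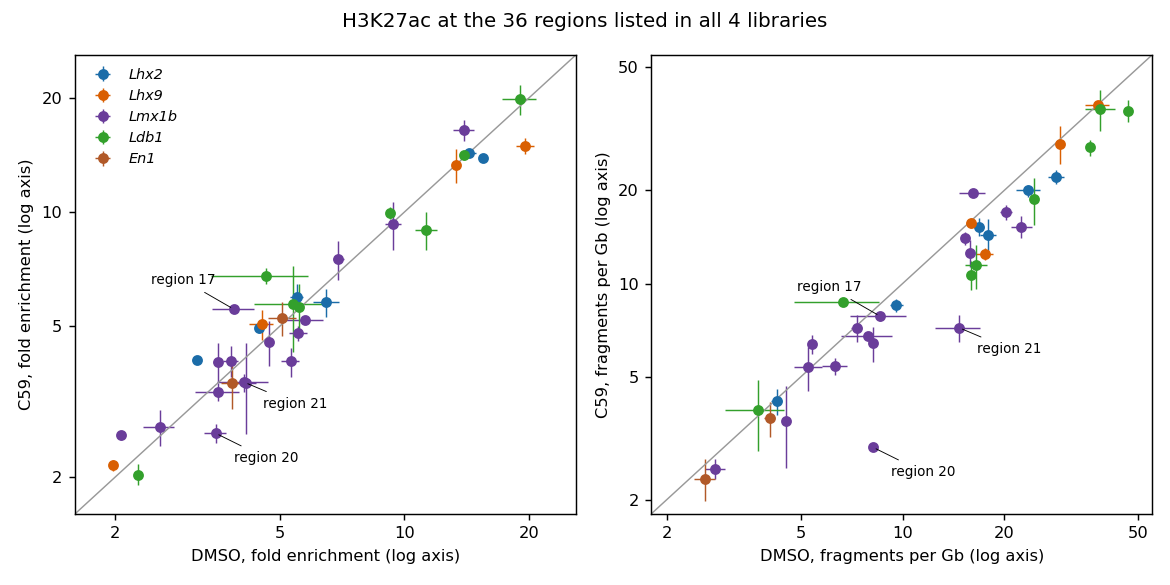
H3K27ac at the 36 member regions listed in all 4 libraries, C59 against DMSO, as fold enrichment (left) and as fragments at the summit per Gb of library (right), on log axes. Points, coloured by locus, are means of 2 replicates, bars run from the lower to the higher replicate and the grey line marks equal values, and Lmx1b regions 20 and 21 lie farthest below the line on the right, at 36.2% and 49.0%.

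Some regions had a row in both libraries of 1 treatment and in neither of the other. Lmx1b region 5 (intronic, 64.8 kb) had folds of 5.04 and 4.52 in DMSO and no row after C59. Lmx1b region 15 (−42.8 kb), which holds β-catenin site 4, had 3.25 and 3.35 in DMSO, on 11 and 12 fragments, and no row after C59. Lhx9 region 1 (chr1:138763161-138763637), between β-catenin sites 2 and 3, had no row in DMSO and 4.02 and 3.65 after C59, on 18 and 16 fragments. At this place β-catenin was thus listed in both DMSO libraries and not after C59, and H3K27ac was listed in both C59 libraries and not in DMSO. Such regions were 2 of 56 for DMSO (3.57%, against 3.02% of all regions of the genome) and 1 of 56 for C59 (1.79%, against 2.15%), shares near those of the genome. The lowest number of fragments listed was 10 in DMSO and 11 after C59, which Lmx1b region 15 hardly passed.

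Of the 29 β-catenin sites, 16 lay more than 1 kb from any DMSO H3K27ac consensus peak, and 6 were inside a DMSO H3K27ac consensus peak (20.7%, 9.85 to 38.4%, against 22.1% of all summits), and none of the strongest sites of the 5 loci was. Another 7 lay outside by between 3 and 604 bp, which brings the share within 1 kb to 44.8%, against 34.1% of all summits. Lhx2 site 4 lay 29 bp and Ldb1 site 3 lay 3 bp from the edge of a DMSO region, and Lmx1b sites 5 and 8 lay 174 and 133 bp from one. En1 site 3 had H3K27ac rows on either side of it in DMSO replicate 2, the nearer 156 bp away with a fold of 5.1, and none nearby in the other 3 libraries.

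The same window was counted for 20 related genes. Of the 9 other LIM homeodomain genes, 8 had at least 1 DMSO consensus β-catenin summit (20 summits in all, most at Lmx1a with 5), although only Isl2 had an H3K27ac summit at its TSS in DMSO. Of the 9 LIM-only and adaptor genes, which encode partners of LDB1 and its complexes, 8 had a summit (45 in all), most at Ssbp3 with 11 and Ssbp4 with 8, and 8 had an acetylated TSS. Wnt7a had 5 summits and an unacetylated TSS, and En2 had 0. After C59 the consensus count was 0 at all 20 genes, against 70 in DMSO. Of all 21911 protein-coding genes, 1.23% had a C59 consensus summit in such a window, and the median gene had 1 in DMSO. A count of 0 after C59 is therefore not particular to the related genes.

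The genes most like each member in their 8 library counts, by Euclidean distance of log2(summits + 1), were Akap13 and Spaca9 for Lhx2 (0.18 and 0.226), Csrp2 and Ranbp17 for Lhx9 (0.138 and 0.152) and Ubap1 and Hnrnpr for Ldb1 (0.148 and 0.172). Triqk and Anapc15-ps were nearest to En1 (0.415 and 0.568). For Lmx1b the nearest were 4930558K02Rik and Pigc (0.665 and 0.67), and no gene came as close to it as to the other 4.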

How the data were processed

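β-catenin and H3K27ac ChIP-seq peak lists of forelimb buds were used, 2 replicate lists and 1 consensus list for each antibody and treatment. The 4 input samples were not used here. Per the submitters' processing notes, reads were trimmed with cutadapt 4.1 and aligned to mm10 with Bowtie2 2.4.5, duplicates were removed with Picard 2.27.4 and peaks were called with MACS2 2.2.7.1. By the study's methods the caller was run without input, with a genome size of 1870000000, on alignments of mapping quality 30 or more, and consensus lists were called on both replicates after sampling to the smallest. The deposited columns hold a ratio (fold enrichment at the summit), p-values and q-values as −log10, and the summit offset. The authors gave no counts. Fold is (fragments + 1)/(expected + 1), which was solved with the Poisson p for fragments and expected coverage at each row. Rows with extremely small p-values were kept out of the depth estimate, and at the 5 loci these were H3K27ac consensus rows, whose fragments are not reported. The lowest expected coverage times the genome size gives the Gb of fragments per library. A missing row means only that the signal did not pass the caller's threshold.

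Members and gene lists were chosen with earlier results of these data known. Sites named in each locus were the strongest DMSO summit, those at a TSS (under 1 kb) or with a TCF/LEF core and those inside a C59 peak, and the H3K27ac regions at the TSS, the strongest and those of 1 treatment. Other sites and regions, among them those called on fragments per Gb, were named after their values were seen. Related genes were 20, and the 2 most alike genes were named for each member. H3K27ac rows of the 4 libraries were merged into regions, and those with a row in all 4 were fitted with limma 3.58.1 (R 4.3.3) on log2 of the highest fold, with an empirical Bayes trend and Benjamini-Hochberg adjustment over all regions, which was tested on simulated data. Fragments per Gb are the highest at a summit of the region. Summit counts were compared by an exact permutation test. Replicates were pools of limb buds, and p-values measure only the spread between these libraries. Shares carry Wilson intervals (95%), which cover counting error only. Annotation was GENCODE M21, sequences were from RefSeq GRCm38.p6. Alternatives were a stricter q or fold, windows of 50 and 300 kb, single replicates, other definitions of overlap and, for limma, centring, fragments, a replicate block and leaving out a library. Restricting sites to the C59 limit, leaving out Lmx1b, the ranks and counts of regions at or under 50% and the grouping by β-catenin fragments were added after the data were seen. Calculations used Python 3.11, pandas 2.3.3 and scipy 1.17.1.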

Additional observations from a re-analysis of the deposited data

How the results depend on the processing

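Of 66 values under alternatives, 56 kept their direction and, where there was a threshold or a spread to hold them to, stayed on its side or within it, 9 moved and 1 turned its sign. Among those 56 sizes still differed, as with the shares inside H3K27ac and with a TCF/LEF core, which were both 20.7% and as low as 10% (folds of 5 or more, and a window of 50 kb). The difference in β-catenin summits was negative under every setting run, from −17.5 with a window of 50 kb to −62.0 with 300 kb, and from −43.0 to −38.0 with a library left out. The difference in H3K27ac summits was −5.5 and went from −13.5 to 2.5 with a library left out. The share of DMSO β-catenin summits outside C59 peaks was 96.6%, and 100% with a window of 50 kb and without the Lmx1b locus. The share of DMSO H3K27ac regions overlapped after C59 was 87.8%, ran from 73.1 to 93.3% with 1 replicate alone and was 95.1% with either C59 list. The share of sites inside H3K27ac was 20.7%, and 44.8% with peaks extended by 1 kb. limma called 2 regions of the genome, 747 on fragments per Gb (the cause was not tested) and 0 to 2 with a library left out (1 without DMSO replicate 1 and 0 without either C59 replicate, with 1516 and 1382 unadjusted p-values under 0.05). The labels number the replicates alike in each group, and the deviations of same-numbered H3K27ac libraries had a correlation of 0.01, so the numbers were not used as pairs. With a replicate block the β-catenin difference stayed −40.5 (exact sign flips, p = 0.5, the smallest possible) and the H3K27ac difference −5.5, and limma called 2 regions. Having 2 libraries per group and the listing limit of 8 to 11 fragments limit what can be detected.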

Other observations

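Some rows at these loci were listed by only 1 DMSO replicate: 11 of 39 summits of replicate 1 and 15 of 44 of replicate 2 did not lie in a peak of the other replicate, with folds of up to 7.06 and 5.91. The same shares over all rows of the replicate lists were not counted, so whether these are high is not known. The En1 locus had the fewest, with 0 of 5 and 1 of 6.

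Among the marker genes outside limb mesenchyme, Lbx1 of muscle precursors had an H3K27ac row at its TSS in all 4 libraries, Cdh5 of endothelium in 3, and Pecam1 in both C59 libraries (folds 4.83 and 4.73) and in neither DMSO library. The part of these cells in the values at the 5 loci was not tested.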
